A study of Mus musculus with 4 samples.

Results

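The genes described here are 8 stress genes measured in single leukocytes of mouse tumours. They are the metallothioneins Mt1 and Mt2 and 6 genes known as targets of the transcription factor NRF2, namely Hmox1, Gclm, Slc7a11, Srxn1, Txnrd1 and Nqo1, of 33696 features in the count matrices. The genes were chosen by name with earlier results of these data in view, so their levels and ratios are given as a description, with no test. Cells came from subcutaneous tumours of KPC, a mouse pancreatic cancer line, grown in male C57BL/6 mice. The 4 groups were untreated mice, mice given ADU-S100, an agonist of the DNA sensor pathway protein STING, into the tumour, mice given an agonist antibody to the lymphotoxin-β receptor (anti-LTβR) into the peritoneum, and mice given both (combination). All 4 groups carried the same tumour line. Per the study's methods, ADU-S100 was given as a single dose at the start and the antibody repeatedly. Tumours were taken days after the last dose of either, so the levels describe that later state. Tumours were pooled within a group, digested with Liberase for 1 hour at 37 °C and sorted for live CD45+ cells before 10x Genomics 5′ libraries were made, so each group is 1 library. There was no replicate check of any difference, no p-value is given, and the line is 1 model of this cancer.

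Metallothioneins are small, cysteine-rich proteins that bind zinc and copper, and their genes are switched on by the metal sensor MTF1 through metal response elements. NRF2, encoded by Nfe2l2, is held and degraded by KEAP1 in resting cells, and when oxidants or electrophiles modify KEAP1 it moves to the nucleus, pairs with small MAF proteins and binds antioxidant response elements that BACH1 otherwise occupies. Its targets supply cystine and glutathione, reduce thioredoxin and peroxiredoxin, and break down haem. Several of them also answer to other regulators, such as ATF4 in the case of Slc7a11.

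Sets of 4 values are given in the order untreated, ADU-S100, anti-LTβR and combination. Levels are CPM, that is, a gene's UMIs divided by all UMIs of that class or subset in 1 library and multiplied by 1e6. The cells that remained after filtering numbered 7516, 13441, 13225 and 14666, and clusters, formed without the 8 genes and their pathway lists, were named from marker genes. The named cells included 3130, 4661, 6440 and 6961 macrophages and monocytes, 655, 514, 765 and 758 dendritic cells (DCs), 515, 5380, 1023 and 1349 neutrophils and 1391, 592, 2052 and 1659 T cells. Ptprc, which encodes CD45, stood between 1023 and 2826 CPM in these 4 classes. All markers of each class were detected in it in every library, which is no check, since clusters were named from these markers. In DCs the DC markers summed to 2596, 2357, 2459 and 1950 CPM. The neutrophil markers summed to 1507, 2988, 2087 and 1917 CPM in DCs, and the macrophage and monocyte markers to 962, 1008, 1388 and 2055 CPM. Of the macrophages and monocytes, 3 named subsets are described, namely C1q-high, Mmp12 and Gpnmb, and Chil3 and Vcan monocyte cells, and between 26.8% and 44.6% of them stayed unnamed. Median depth per macrophage or monocyte was 7602.5, 8366, 5177.5 and 3288 UMIs. The combination library was the shallowest in all 4 classes, and 45.2% of its neutrophils held fewer than 1000 UMIs.

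The promoters of 4 of the genes are shown because Mt1 and Mt2 are neighbours in the genome and Gclm and Slc7a11 both serve the glutathione route. Of the 8 genes, 7 had an entry in the promoter table from RefSeq for GRCm38.p6, with 9 start sites. The 250 bases before the start were searched on both strands for the core of the antioxidant response element, TGACNNNGC, found before 10.2% of 32851 starts of all genes, and for 2 cores of the metal response element, TGCACNC and TGCGCNC, of which at least 1 was found before 21.4% of them. Capitals mark these matches, read 5′ to 3′ on the gene's strand.
Mt2, chr8:94172368-94172617, plus strand: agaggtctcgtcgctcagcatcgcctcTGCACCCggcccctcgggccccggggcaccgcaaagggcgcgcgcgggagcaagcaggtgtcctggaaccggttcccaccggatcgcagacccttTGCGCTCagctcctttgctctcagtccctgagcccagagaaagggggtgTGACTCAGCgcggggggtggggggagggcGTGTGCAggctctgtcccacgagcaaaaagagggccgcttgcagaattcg
Mt1, chr8:94178839-94179088, plus strand: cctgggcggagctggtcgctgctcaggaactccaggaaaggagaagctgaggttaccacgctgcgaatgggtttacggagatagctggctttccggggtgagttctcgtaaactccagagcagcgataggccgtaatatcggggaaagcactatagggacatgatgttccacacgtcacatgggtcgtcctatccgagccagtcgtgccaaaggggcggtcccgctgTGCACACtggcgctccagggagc
Gclm, chr3:122245307-122245556, plus strand: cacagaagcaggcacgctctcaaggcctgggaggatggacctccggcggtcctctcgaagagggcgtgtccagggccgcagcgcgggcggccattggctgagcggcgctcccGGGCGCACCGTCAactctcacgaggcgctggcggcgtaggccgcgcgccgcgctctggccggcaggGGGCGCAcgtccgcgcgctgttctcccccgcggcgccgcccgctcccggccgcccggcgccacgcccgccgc
Slc7a11, chr3:50443614-50443863, minus strand: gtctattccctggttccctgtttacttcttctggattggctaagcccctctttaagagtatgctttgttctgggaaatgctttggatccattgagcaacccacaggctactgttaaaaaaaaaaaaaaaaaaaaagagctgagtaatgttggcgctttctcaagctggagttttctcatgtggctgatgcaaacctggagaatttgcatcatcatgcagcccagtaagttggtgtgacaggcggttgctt

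The starts of Mt2 and Mt1 lie 6471 bases apart on chromosome 8. The Mt2 window held 3 metal response element cores and 1 antioxidant response element core, and the Mt1 window held 1 metal response element core. In the Gclm window the antioxidant response element core overlapped 1 of 2 metal response element cores, all on the opposite strand. The Slc7a11 and Nqo1 windows held neither motif, 1 of 3 Txnrd1 starts held an antioxidant response element core and the Srxn1 start a metal response element core. A match describes these letters and is not a bound site, and no match says nothing of the rest of the gene.

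The 8 genes divided the leukocytes differently, as the plot of levels by cell class shows. Mt1 was highest in macrophages and monocytes in every library, whereas Slc7a11, Txnrd1, Hmox1 and Nqo1 were highest in neutrophils in every library among the 4 classes. For the other 3 genes the class with the highest level was not the same in all libraries. The Nqo1 order rests on few UMIs, and NK cells are plotted for comparison.

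**Figure D1:**
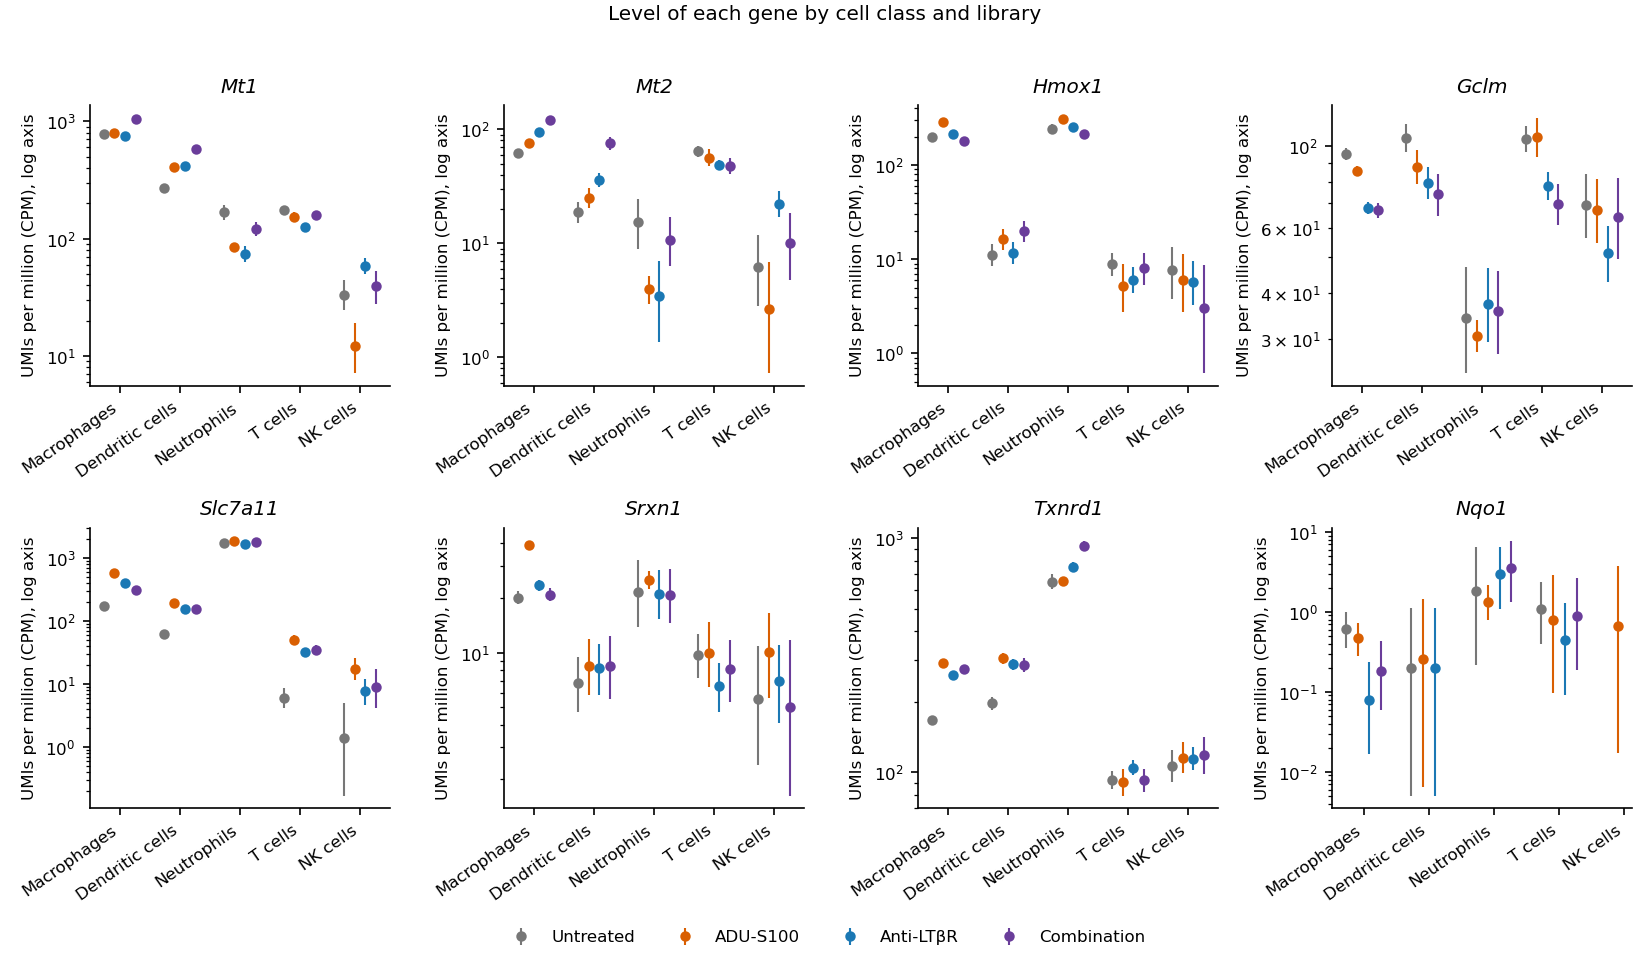
Level of each gene (CPM, log axis) in macrophages and monocytes, DCs, neutrophils, T cells and NK cells, with 1 point per library and bars for the exact Poisson 95% interval; values of 0 are left out. Slc7a11 stands between 1686 and 1860 CPM in neutrophils, and Mt1 between 752 and 1053 CPM in macrophages and monocytes.

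Mt1 in macrophages and monocytes stood at 774, 793, 752 and 1053 CPM. The first 3 libraries lay close together and the combination library stood above them. The share of these cells with an Mt1 UMI was 73.3, 77.6, 65.4 and 67.2%, but once each cell was thinned to 1000 UMIs it was 37.2, 39.5, 35.8 and 46.2%, so that the order of the shares then followed that of the levels. Mt2, the less abundant of the pair in UMIs, stood at 62.5, 76.6, 95.1 and 122 CPM in the same cells, lowest in the untreated and highest in the combination library. Against untreated, the log2 ratio of Mt2 was 0.29 (exact binomial 95% interval 0.21 to 0.38) under ADU-S100, 0.60 (0.52 to 0.69) under anti-LTβR and 0.96 (0.87 to 1.05) under the combination. These intervals, and all others given, cover counting error only and not variation between mice, tumours or libraries. The 2% of cells with most Mt2 UMIs held 795 of 1640, 1705 of 3104, 1932 of 3566 and 1637 of 3332 UMIs. Without these cells the log2 ratios of Mt2 were 0.10, 0.44 and 0.96. With cells thinned to 1000 UMIs they were 0.36, 0.51 and 0.84.

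Within these 3 macrophage and monocyte subsets the metallothioneins were highest in the Mmp12 and Gpnmb cells, whose name-giving genes encode macrophage elastase and a lysosomal membrane glycoprotein. Mt1 there was 1098, 1266, 1415 and 1796 CPM, and Mt2 was 196, 289, 438 and 491 CPM. Both genes thus stood in the same order of libraries in this subset, with untreated lowest and the combination highest. Mt2 was past 2-fold against untreated in these cells under anti-LTβR, at a log2 ratio of 1.16, and under the combination, at 1.32, where 0.723% and 0.871% of all genes counted in this subset were. In Chil3 and Vcan monocytes Mt2 stayed between 15.4 and 20.9 CPM and Mt1 between 405 and 577 CPM, the lowest levels of both genes among the 3 subsets. When the subset levels were weighted by the subset shares of the untreated library, the log2 ratio of Mt2 over all macrophages and monocytes under the combination was 1.05. The Mmp12 and Gpnmb cells numbered 224, 291, 318 and 310, and some of their markers, such as Fabp5, also led an unnamed cluster described at the end.

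**Figure D2:**
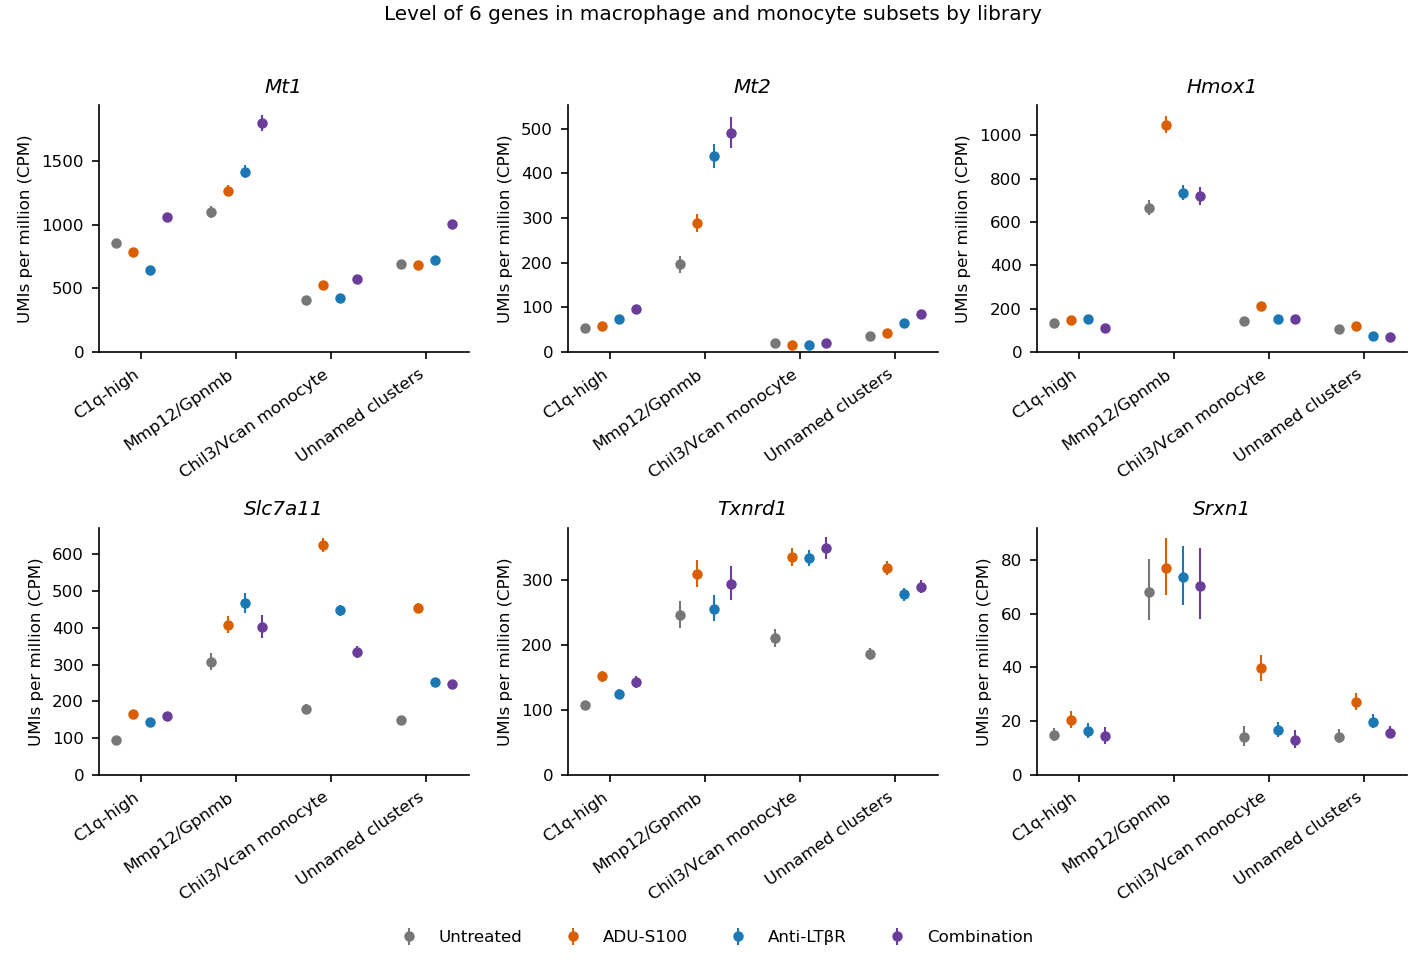
Level (CPM) of 6 of the genes in 3 named subsets and the unnamed clusters of macrophages and monocytes, 1 point per library with its exact Poisson 95% interval. Mt2 and Hmox1 are highest in the Mmp12 and Gpnmb cells, and Slc7a11 in Chil3 and Vcan monocytes is 179 CPM in the untreated library and 334 to 625 CPM in the others.

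In DCs the metallothioneins differed most under the combination. Mt1 stood at 268, 409, 415 and 581 CPM, with both single agonists above untreated and the combination above all 3. Mt2 stood at 18.7, 25.2, 36.1 and 75.6 CPM, in the same order of libraries. The log2 ratio of the combination against untreated was 1.12 (1.02 to 1.22) for Mt1 and 2.01 (1.67 to 2.38) for Mt2, and that of Mt2 against ADU-S100 was 1.58 (1.24 to 1.94). The Mt2 values rest on 94, 98, 181 and 233 UMIs, and 121 of the 233 UMIs in the combination library came from 10 cells. Without the 2% of cells with most Mt2 UMIs in each library the levels were 7.99, 7.97, 17.8 and 27.8 CPM, so the combination remained the highest, on fewer than 200 UMIs. The class's summed level of the 12 macrophage and monocyte markers also moved, at 962, 1008, 1388 and 2055 CPM. Macrophage RNA scaled to C1qa, C1qb and C1qc would carry 17.6, 19.5, 52.6 and 110 CPM of Mt1, rising in the same order of libraries as the measured level, and with RNA of other classes subtracted the Mt1 ratio under the combination was below 2-fold, at 0.91. It was also below 2-fold when the DC subsets were weighted by their untreated shares (0.86), with equal weight of cells (0.92) and with cells thinned to 1000 UMIs (0.98), and naming each cell on its own brought that of Mt2 against anti-LTβR from 1.07 to 0.42.

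Among DC subsets, cDC1s, the cross-presenting DCs, had Mt1 at 97.1, 218, 327 and 287 CPM, with untreated lowest. cDC2s had Mt1 at 252, 456, 399 and 619 CPM, with the combination highest. Mature DCs, which carry Ccr7 and Fscn1, had Mt1 at 199, 205, 202 and 364 CPM, so the first 3 libraries lay within their counting intervals and only the combination stood above them. Plasmacytoid DCs numbered 32, 24, 29 and 15 cells, and Mt2 was not detected in them in any library. The exact Poisson 95% interval of a level of 0 reached 108 CPM in the smallest of these sets. Between 28.5% and 40.6% of DCs stayed unnamed, and these held Mt1 at 642 to 840 CPM. The largest unnamed sub-cluster, of 55, 60, 126 and 85 cells, was led by Mmp12, Hilpda and Pgf, with 1 of 6 cDC2 markers and with the chemokine receptor gene Ccr1 of monocytes and macrophages among its 10 leading genes, and it had Mt1 at 887, 832, 809.7 and 1118 CPM. Another, of 20, 10, 17 and 39 cells, had Apoe, C1qa, C1qb and C1qc among its leading genes and Mt1 at 953, 977, 765 and 991 CPM. In DCs of a named subset alone Mt1 stood at 172, 297, 307 and 447 CPM, with a log2 ratio of 1.38 under the combination.

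**Figure D3:**
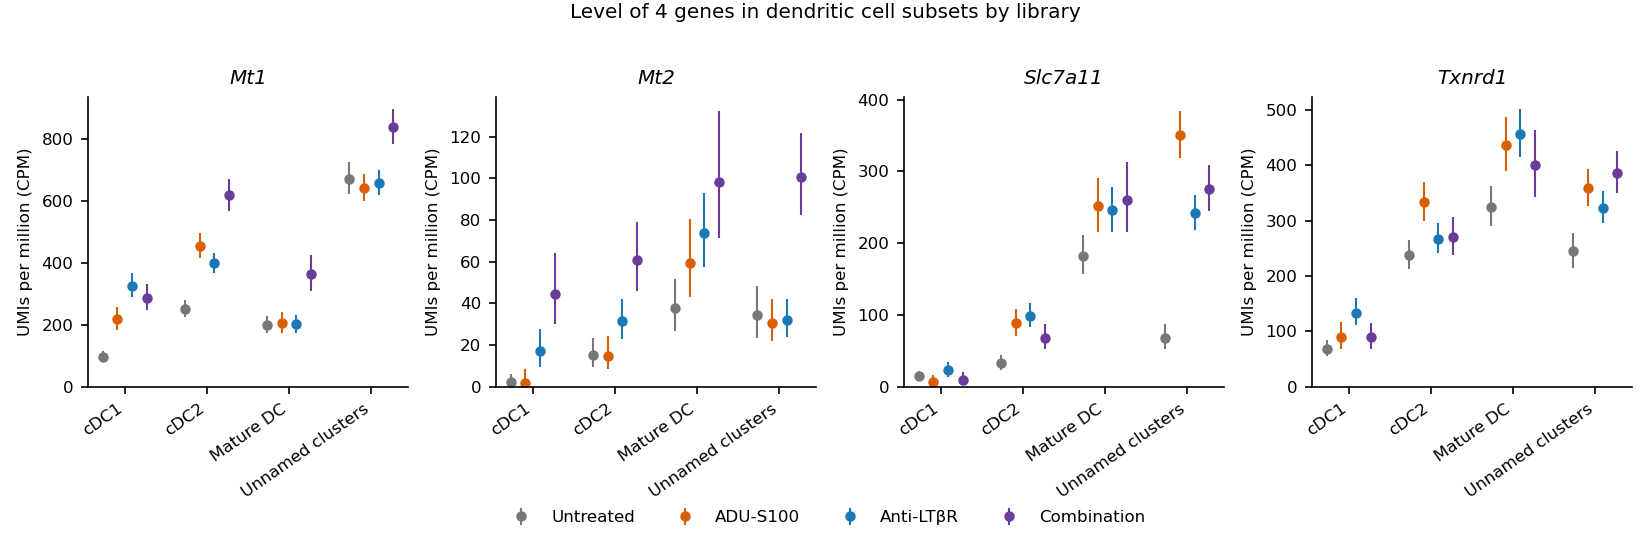
Level (CPM) of Mt1, Mt2, Slc7a11 and Txnrd1 in subsets of DCs, 1 point per library with its exact Poisson 95% interval. Mt1 in cDC1s is 97.1 CPM in the untreated library and 218 to 327 CPM in the others.

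Neutrophils had less Mt1 than DCs and macrophages and monocytes in each library. It stood at 168, 84.7, 74.0 and 121 CPM, highest in the untreated library, and the share of cells with a UMI was between 7.43% and 9.32% in all 4. Of the 186 untreated UMIs, 134 came from 10 cells. Without the 2% of cells with most Mt1 UMIs in each library the levels were 46.8, 33.9, 31.1 and 56.2 CPM, with the combination highest and untreated next. Mt2 in neutrophils was 15.3, 3.95, 3.43 and 10.7 CPM on 17, 50, 7 and 18 UMIs. Macrophage RNA scaled to the C1q genes would carry 34.1, 26.1, 23.9 and 38.9 CPM of Mt1. The summed level of macrophage and monocyte markers in neutrophils was 3703, 1361, 3069 and 2456 CPM, highest in the untreated library as well. The class held an unnamed sub-cluster of 26, 144, 76 and 104 cells with monocyte and antigen presentation genes such as Ccr2, Vcan and Cd74 among its leading genes, in which Mt1 stood at 565, 295, 246 and 384 CPM. It held 107 of the 186 untreated Mt1 UMIs. Without it the marker sum was 1373, 1019.7, 1427 and 1406 CPM and Mt1 stood at 85.8, 74.6, 36.9 and 77.0 CPM, with a log2 ratio against untreated of -0.21, -1.21 and -0.16, of which the last 2 rest on fewer than 200 UMIs. Slc7a11 in neutrophils was then 1991, 1894, 1912 and 1901 CPM.

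T cells had Mt1 at 176, 152, 125 and 158 CPM and Mt2 at 64.1, 56.5, 48.7 and 47.8 CPM. The levels differed widely between T cell clusters, as the plot by cluster shows. In the cluster led by Cd8a, Prf1 and Nkg7, genes of cytotoxic CD8 T cells, Mt1 was 260, 187, 370 and 403 CPM. In the clusters with Tcf7 and Lef1, and with Rora and Cd4, among their leading genes it lay between 6.96 and 64.3 CPM in all libraries. The cluster led by Il2ra, Ctla4 and Ikzf2, with Foxp3 of regulatory T cells among its next genes, had Mt1 at 227, 768, 211 and 36.6 CPM. Of its 205 Mt1 UMIs under ADU-S100, 197 came from 10 of 71 cells, and the combination library had 7 UMIs in 108 cells. Over all T cells, leaving out the 2% of cells with most Mt1 UMIs in each library gave 89.3, 45.0, 54.0 and 69.9 CPM.

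**Figure D4:**
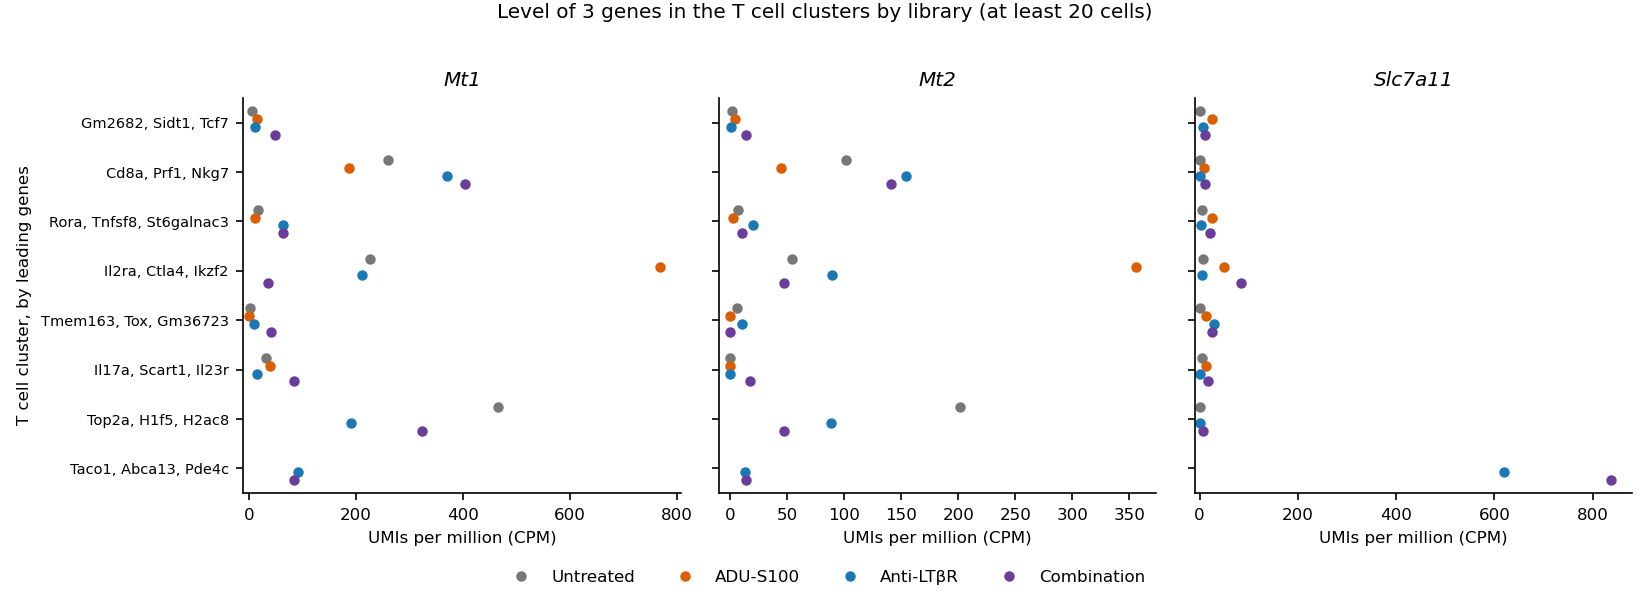
Level (CPM) of Mt1, Mt2 and Slc7a11 in T cell clusters named by their leading genes, 1 point per library for clusters with at least 20 cells in it. Mt1 in the Il2ra and Ctla4 cluster ranges from 36.6 CPM in the combination to 768 CPM under ADU-S100, and Slc7a11 is highest in the Taco1 and Abca13 cluster, at 620 and 838 CPM in the 2 libraries plotted for it.

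Hmox1 encodes the inducible haem oxygenase, which splits haem into biliverdin, carbon monoxide and iron. In macrophages and monocytes it stood at 201, 287, 214 and 182 CPM, with the ADU-S100 library alone above the rest. In neutrophils it stood at 242, 307, 252 and 213 CPM, again highest under ADU-S100 and lowest under the combination. The log2 ratio of ADU-S100 against untreated was 0.51 (0.46 to 0.56) in macrophages and monocytes and 0.34 (0.16 to 0.53) in neutrophils, and that of the combination against ADU-S100 was -0.66 (-0.71 to -0.61) and -0.53 (-0.69 to -0.37). None of these reached 2-fold, and without doublet removal the ratio of ADU-S100 against untreated in neutrophils was -0.27.

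Among the 3 subsets, Hmox1 was highest in the Mmp12 and Gpnmb cells, at 666, 1049, 735 and 721 CPM, where 67.4% to 83.2% of cells held a UMI. Among neutrophils, the Ccl3-high subset had Hmox1 at 164, 375, 385 and 282 CPM, and it was past 2-fold against untreated under ADU-S100, at a log2 ratio of 1.18, and under anti-LTβR, at 1.22, where 12.0% and 5.58% of all genes counted in this subset were. The untreated value there rests on 47 UMIs in 149 cells. DCs and T cells held little Hmox1, between 11.1 and 19.8 CPM and between 5.17 and 8.93 CPM.

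Slc7a11, the cystine-importing subunit of the system xc- exchanger, was far higher in neutrophils than in the other 3 classes. Neutrophils had 1740, 1860, 1686 and 1763 CPM, and 66.7% to 76.0% of them held a UMI. The 4 libraries differed little in this class, with log2 ratios against untreated of 0.10, -0.05 and 0.02. This holds for the cells named neutrophils, and an unnamed cluster with some neutrophil markers, described at the end, differed more. In macrophages and monocytes Slc7a11 stood at 175, 569, 407 and 314 CPM, so all 3 treated libraries were above untreated and ADU-S100 was the highest. Thinned to 1000 UMIs, the share of these cells with a UMI was 11.6, 30.1, 22.7 and 19.1%, in the same order. The log2 ratio against untreated was 1.70 (1.65 to 1.75) under ADU-S100, 1.22 (1.17 to 1.27) under anti-LTβR and 0.84 (0.79 to 0.89) under the combination, and the 3 comparisons share the untreated library. The combination stood below ADU-S100, at -0.86 (-0.89 to -0.82).

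Each of the 3 macrophage and monocyte subsets had more Slc7a11 in each treated library than in the untreated one, to different degrees. Chil3 and Vcan monocytes had 179, 625, 448 and 334 CPM, with a log2 ratio of 1.80 (1.69 to 1.92) under ADU-S100, where 4.62% of all genes counted in this subset were past 2-fold. C1q-high macrophages, with the genes of complement C1q, had 95.4, 165, 143 and 161 CPM. Since subsets differed in level and in share between libraries, the subset levels were also weighted by the untreated shares, which gave a log2 ratio of 1.23 under ADU-S100. Under anti-LTβR the same weighting gave 0.87 and naming each cell on its own gave 0.85, both below 2-fold, against 1.22 as counted.

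DCs had Slc7a11 at 62.4, 193, 155 and 153 CPM, with all treated libraries above untreated. The log2 ratios were 1.63 (1.44 to 1.82), 1.31 (1.12 to 1.51) and 1.30 (1.09 to 1.51). When every cell was given the same weight the ratios under anti-LTβR and the combination fell below 2-fold, to 0.92 and 0.97, and with cells thinned to 1000 UMIs they were 0.97 and 0.75. The difference lay unequally over the subsets. cDC1s had 14.8, 6.23, 22.5 and 9.21 CPM on at most 22 UMIs a library, cDC2s had 32.5, 88.1, 99.1 and 68.4 CPM, mature DCs had 182, 252, 246 and 261 CPM, and the unnamed DCs had 68.5, 351, 242 and 276 CPM. Levels in cDC1s were thus low in every library, and the highest values of all treated libraries were in mature or unnamed DCs. Of the unnamed DCs, the Mmp12, Hilpda and Pgf sub-cluster had 73.4, 210, 274 and 287 CPM, and one of 52, 43, 63 and 65 cells led by Ctnnd2, Creb5 and Spon1 had 106, 991, 229 and 509 CPM on 16, 165, 43 and 72 UMIs. In DCs of a named subset alone Slc7a11 stood at 60.9, 116, 117 and 89.7 CPM, and its log2 ratios against untreated, 0.93, 0.94 and 0.56, were all below 2-fold.

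Because neutrophils carried so much Slc7a11 and made up 6.85, 40.0, 7.74 and 9.20% of kept cells, their RNA in other cells was measured from S100a8 and S100a9, neutrophil genes that encode calprotectin. These summed to 32.6, 255, 86.7 and 96.0 CPM in macrophages and monocytes, against 36921 to 58704 CPM in neutrophils. Scaled to them, neutrophil RNA would carry 1.53, 9.12, 2.49 and 3.63 CPM of Slc7a11 in macrophages and monocytes. In DCs it would carry 0.346, 21.1, 2.38 and 1.17 CPM. With the scaled neutrophil RNA subtracted, the ratios past 2-fold in macrophages and monocytes were the same as without. The neutrophil list of 9 markers as a whole summed to 538, 1091, 934 and 1096 CPM in macrophages and monocytes, with all 9 detected. Among the macrophages and monocytes, an unnamed sub-cluster of 13, 172, 48 and 90 cells was led by S100a9 and S100a8, and among DCs one of 1, 36, 13 and 3 cells. Their Slc7a11 level was 424, 849, 499 and 495 CPM in macrophages and monocytes. Without these sub-clusters Slc7a11 stood at 174, 558, 407 and 312 CPM in macrophages and monocytes and at 62.4, 168, 155 and 153 CPM in DCs, and the ratios past 2-fold in both classes were the same as with them.

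T cells had Slc7a11 at 6.07, 49.7, 32.1 and 34.4 CPM on 34, 125, 217 and 115 UMIs. Of these UMIs, 20, 73, 189 and 60 came from a cluster of 112 cells led by Taco1, Abca13 and Pde4c, none of them T cell markers. That cluster held 7, 4, 77 and 24 cells of the 4 libraries. Without it the levels were 2.53, 21.0, 4.34 and 16.8 CPM. In all T cells, that cluster included, neutrophil RNA would carry 0.168, 16.1, 1.06 and 1.40 CPM of Slc7a11. No such amount was computed for the T cells outside it. NK cells had Slc7a11 at 1.38, 17.4, 7.70 and 9.01 CPM. The share of T cells with a UMI was 1.08, 7.77, 3.80 and 2.89%, against 0.489, 5.23, 0.741 and 1.58% of NK cells, at median depths of 1668 to 3777.5 UMIs per T cell and 1431 to 3214 UMIs per NK cell. Outside that cluster the T cells stood below the NK cells under anti-LTβR and above them in the other 3 libraries, and the part of RNA from other cells beyond the scaled amounts was not tested.

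Gclm encodes the modifier subunit of glutamate-cysteine ligase, the first enzyme of glutathione synthesis. In macrophages and monocytes it stood at 95.3, 85.7, 68.0 and 67.0 CPM, highest in the untreated library. In DCs it stood at 105, 88.0, 79.5 and 74.0 CPM, and in T cells at 105, 106, 77.97 and 69.6 CPM. In all 3 classes the anti-LTβR and combination libraries lay below untreated. The log2 ratio of the combination against untreated was -0.51 (-0.60 to -0.42) in macrophages and monocytes, -0.51 (-0.74 to -0.28) in DCs and -0.59 (-0.82 to -0.37) in T cells, none of them 2-fold. With cells thinned to 1000 UMIs these ratios of Gclm were -0.51, -0.24 and -0.43, and those of anti-LTβR against untreated were -0.46, -0.28 and -0.37. In neutrophils Gclm was lower, between 30.5 and 37.2 CPM, with overlapping intervals in the 4 libraries. Under anti-LTβR and the combination Gclm thus lay below and Slc7a11 above untreated in macrophages and monocytes and in DCs. Under ADU-S100 the Gclm ratio in macrophages and monocytes, -0.15, was close to the median of all genes, -0.20.

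Txnrd1 encodes cytosolic thioredoxin reductase and Srxn1 encodes sulfiredoxin, which restores oxidised peroxiredoxins. In macrophages and monocytes Txnrd1 stood at 168, 294, 259 and 275 CPM, with all treated libraries above untreated and close to one another. The log2 ratios were 0.81 (0.76 to 0.86), 0.63 (0.57 to 0.68) and 0.71 (0.66 to 0.77). DCs had 197, 306, 289 and 287 CPM, in the same arrangement. Neutrophils had 650, 657, 755 and 928 CPM, where ADU-S100 did not differ from untreated beyond counting error and the combination was highest, at 0.51 (0.38 to 0.64). T cells had 92.5, 90.7, 104 and 92.6 CPM, within a narrow range. Among cDC1s, cDC2s and mature DCs, mature DCs had the most Txnrd1 in every library, at 324 to 457 CPM. C1q-high macrophages had the least among the 3 macrophage and monocyte subsets in every library, at 107 to 151 CPM.

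Srxn1 in macrophages and monocytes stood at 20.1, 39.4, 23.4 and 20.9 CPM, with the ADU-S100 library alone apart from the others. Its log2 ratio under ADU-S100 was 0.97 (0.83 to 1.12), and that of the combination against ADU-S100 was -0.91 (-1.06 to -0.78). In Chil3 and Vcan monocytes it was 14.2, 39.7, 16.6 and 13.02 CPM, with a log2 ratio of 1.48 (1.07 to 1.92) under ADU-S100 and of -1.60 (-2.04 to -1.20) for the combination against ADU-S100, comparisons in which 4.62% and 1.89% of all genes counted in this subset were past 2-fold. Among the 3 subsets the Mmp12 and Gpnmb cells had the highest level, 68.2, 77.0, 73.7 and 70.3 CPM, with overlapping intervals in all libraries. Neutrophils held 20.8 to 25.1 CPM, DCs 6.75 to 8.47 CPM and T cells 6.51 to 9.94 CPM.

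Nqo1, encoding a quinone reductase often taken as a reporter of NRF2 activity, was barely detected. Its 4 levels were 0.610, 0.469, 0.0800 and 0.182 CPM in macrophages and monocytes and 1.80, 1.34, 2.94 and 3.57 CPM in neutrophils. They rest on at most 19 UMIs in a class and library. In macrophages and monocytes the 3 UMIs under anti-LTβR gave an exact Poisson 95% interval of 0.0165 to 0.234 CPM, below those of the untreated (0.349 to 0.991) and ADU-S100 (0.282 to 0.732) libraries, and 9 of the 16 untreated UMIs came from the Mmp12 and Gpnmb cells. In neutrophils the intervals of the 4 libraries overlapped. In DCs a single UMI was seen in each of the first 3 libraries and 0 in 758 cells of the combination library, with an exact Poisson 95% interval up to 1.20 CPM.

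The members past 2-fold are set beside the share of all genes past it. A ratio was counted when the gene had at least 200 UMIs over both libraries and differed at least 2-fold in either direction. In macrophages and monocytes 7 of the 8 genes could be counted, Nqo1 being below the minimum. Slc7a11 alone was past 2-fold under ADU-S100, where 4.56% of 10246 genes were, and again alone under anti-LTβR, where 1.47% of 10301 were. None of the 7 was past 2-fold under the combination against untreated (1.63% of 10012 genes), against ADU-S100 (2.91%) or against anti-LTβR (0.398%). The median log2 ratio of the 7 genes was 0.51, 0.22 and 0.44 in the 3 comparisons with untreated, beside -0.20, -0.04 and -0.09 over all genes counted, so a Slc7a11 or Srxn1 ratio under ADU-S100 is about 0.20 larger relative to the median gene. Centred in this way, Srxn1 at 1.17 and Txnrd1 at 1.01 were also past 2-fold under ADU-S100.

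**Figure D5:**
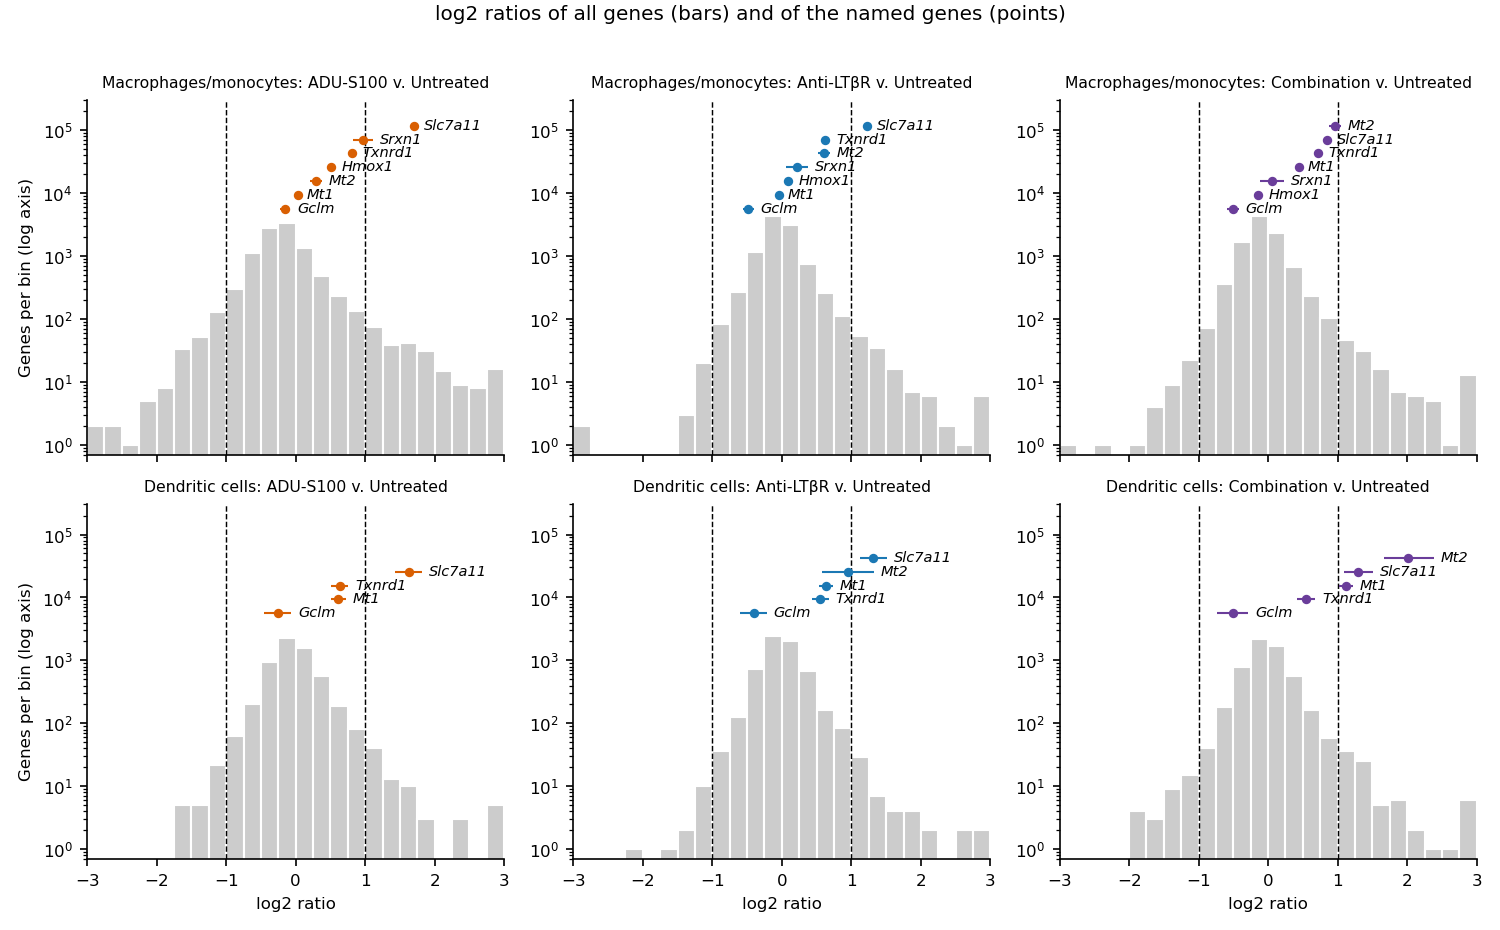
Number of genes by log2 ratio against untreated (bars, genes with at least 200 UMIs over both libraries, values beyond 3 in the end bins) in macrophages and monocytes and in DCs, for the 3 treated libraries, with those of the 8 genes that could be counted as points, with exact binomial 95% intervals, whose height has no meaning; dashed lines mark 2-fold. Slc7a11 lies at 1.70, 1.22 and 0.84 in macrophages and monocytes and at 1.63, 1.31 and 1.30 in DCs.

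In DCs 4 or 5 members had enough UMIs. Under ADU-S100 Slc7a11 was the only one of 4 past 2-fold (background 1.79% of genes), and under anti-LTβR the only one of 5 (1.00%). Under the combination Mt1, Mt2 and Slc7a11, 3 of 5, were past 2-fold (1.97%). Mt2 was the only one of 5 past 2-fold for the combination against ADU-S100 (2.08%) and against anti-LTβR (0.540%), where its log2 ratio was 1.07 (0.78 to 1.36). All of these were rises. In DCs of a named subset alone, Mt1 under the combination was the 1 ratio that could be counted and was past 2-fold. The median log2 ratio of the members was 0.62, 0.63 and 1.12 in the comparisons with untreated, beside -0.05, -0.01 and -0.04 over all genes.

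In neutrophils none of 6 members was past 2-fold under ADU-S100, where 10.1% of genes were. Mt1 fell past 2-fold under anti-LTβR, at a log2 ratio of -1.18 (-1.499 to -0.86), as 1 of 4 members (background 1.95%), with the weight of 10 untreated cells described above. Naming each cell on its own turned this ratio to 0.38. It was past 2-fold under 8 of 13 alternatives, counted without the minimum of 200 UMIs. Among them was leaving out the sub-cluster with Ccr2 and Vcan, at -1.21 on fewer than 200 UMIs. No member of 4, 6 and 4 was past 2-fold for the combination against untreated (0.941%), ADU-S100 (4.99%) and anti-LTβR (0.790%). In T cells none of 4 was past 2-fold under ADU-S100 (1.63%). Slc7a11 was past 2-fold under anti-LTβR, as 1 of 5 (1.78%), at 2.38 (1.88 to 2.97) with the Taco1 and Abca13 cluster included, while without it the gene had too few UMIs to be counted. None of 4, 5 and 5 was past 2-fold for the combination against untreated (1.57%), ADU-S100 (1.25%) and anti-LTβR (0.478%). Just past 2-fold stood Mt2 in DCs, combination against anti-LTβR, at 1.07, and Mt1 in DCs under the combination, at 1.12. Just short of 2-fold stood Mt1 in neutrophils under ADU-S100, at -0.99, Srxn1 in macrophages and monocytes under ADU-S100, at 0.97, Mt2 in these cells under the combination, at 0.96, and Mt2 in DCs under anti-LTβR, at 0.95.

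Most regulators of the pathway stayed within 2-fold in macrophages and monocytes, where 4.56, 1.47 and 1.63% of all genes were past it in the 3 comparisons with untreated, a background that holds for all lists in these cells. Nfe2l2, Keap1 and Bach1 are named here for their role, after their values were seen. Nfe2l2 stood at 545 and 546 CPM in the untreated and ADU-S100 libraries, and its log2 ratios against untreated were 0.00, -0.02 and 0.06. Those of Keap1 were -0.57, -0.19 and -0.19, and those of Bach1 were -0.18, 0.24 and 0.23. Of 8 regulators, 1 was past 2-fold under ADU-S100 and under the combination, and none under anti-LTβR. It was Maff, which encodes a small MAF partner of NRF2, at 35.03, 79.7, 60.8 and 70.9 CPM, with log2 ratios of 1.19 under ADU-S100 and 1.02 under the combination.

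Of 20 other NRF2 targets 19 could be counted in macrophages and monocytes. Under ADU-S100 1 rose and 1 fell past 2-fold, under anti-LTβR 1 rose and under the combination none did, and the list medians were -0.01, -0.03 and -0.01, beside -0.20, -0.04 and -0.09 over all genes. The gene that rose was Gsr, glutathione reductase, at 90.7, 196, 192 and 135 CPM, with log2 ratios of 1.11 and 1.08. The one that fell was Ephx1, microsomal epoxide hydrolase, at 6.14, 3.009, 8.02 and 9.96 CPM, and it was also the only one past 2-fold for the combination against ADU-S100, at 1.72. The other 17 stayed within 2-fold of untreated in the 3 treated libraries.

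None of 10 countable genes for zinc handling was past 2-fold against untreated in any of the 3 comparisons. Of the haem and iron genes, none of 7 was past 2-fold under ADU-S100 and none of 6 under the combination. Under anti-LTβR 1 of 7 rose, namely Cd163, the haemoglobin scavenger receptor, at 3.93, 2.42, 11.7 and 3.43 CPM and a log2 ratio of 1.57. It was also lower in the combination than under anti-LTβR, at -1.76. Of 8 or 9 countable genes of the ATF4 stress response, Ddit4, an inhibitor of mTORC1 signalling, rose past 2-fold under ADU-S100, at 109, 251, 176 and 150 CPM and a log2 ratio of 1.20, and no other gene of the list was past 2-fold in the 3 comparisons with untreated.

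In neutrophils fewer genes of these lists could be counted, and of all genes 10.1, 1.95 and 0.941% were past 2-fold in the 3 comparisons with untreated and 4.99% for the combination against ADU-S100. Under ADU-S100, of 13 other NRF2 targets, Abcc1, an exporter of glutathione conjugates, was higher at a log2 ratio of 1.13, and G6pdx, the first enzyme of the pentose phosphate route, and Prdx1, a peroxiredoxin, were lower at -1.07 and -1.03. G6pdx was higher in the combination than under ADU-S100, at 1.09. In the same comparison Tfrc, the transferrin receptor, was lower at -1.38, as 1 of 5 haem and iron genes. The zinc transporter gene Slc30a7, the only 1 of 12 zinc genes that could be counted, was lower under ADU-S100 at -1.04. Of 5 ATF4 genes, Ddit3, which encodes CHOP, was higher under ADU-S100 at 1.16, and Sesn2, sestrin 2, was higher under anti-LTβR at 1.21 and under the combination at 1.30. Sesn2 stood at 61.2, 112, 142 and 152 CPM. No regulator of NRF2 was past 2-fold in neutrophils in any comparison. Over all genes the median log2 ratio under ADU-S100 was -0.31 in this class, so falls under ADU-S100 are smaller, and rises larger, relative to it.

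The tissue was digested at 37 °C, and a list of 12 genes of the dissociation response, such as Fos, Jun and Hspa1a, moved with some of the values above. Its summed level in macrophages and monocytes was 7541, 9466, 8738 and 8586 CPM, lowest in the untreated library, where Slc7a11, Txnrd1 and Mt2 were also lowest. None of the 12 was past 2-fold under ADU-S100 or the combination against untreated, and Hspa1a and Hspa1b, which encode the heat shock protein HSP70, were higher under anti-LTβR at 1.19 and 1.07. In DCs the list summed to 4485, 5062, 5281 and 5447 CPM, in neutrophils to 18378, 17133, 16533 and 16809 CPM, and in T cells to 1945, 3002, 2494 and 2364 CPM. Hspa1a and Hspa1b were past 2-fold higher in neutrophils under ADU-S100, at 1.29 and 1.20, and under anti-LTβR, at 1.31 and 1.28. The part of this response in the members' values was not tested. In DCs and T cells no gene of the lists of other NRF2 targets, zinc handling, and haem and iron was past 2-fold in any of the 5 comparisons. The genes of the other lists past 2-fold in these 2 classes are named after their values were seen. In DCs these were Ddit4 (1 of 4 ATF4 genes, log2 ratio 1.04) and Hspa1b (1 of 12 dissociation genes, 1.05) under ADU-S100, and under the combination Cebpb (1 of 4, 1.01) with Hspa1a (1.29) and Hspa1b (1.28). In T cells they were Maff (1 of 7 regulators, 1.27), Fos (1.04), Fosb (1.38) and Egr1 (1.02) under ADU-S100, Fos (1.05), Hspa1a (1.31) and Hspa1b (1.06) under anti-LTβR, and Jun (1.07) under the combination. The backgrounds were 1.79 and 1.97% of all genes in DCs under ADU-S100 and the combination, and 1.63, 1.78 and 1.57% in T cells under the 3 treatments.

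Across 60 sums of UMIs, each of 1 class or subset in 1 library, the member most like Mt2 was Mt1, with Pearson's r of 0.77, which was also the highest value for Mt2 among 10488 genes. Mt1 itself was most like Dab2 (0.91) and Myof (0.91). The genes most like Slc7a11 were Il1rn (0.95), the interleukin-1 receptor antagonist, and Ptgs2 (0.94), cyclooxygenase 2, and among members it was nearest to Txnrd1 (0.85) and Hmox1 (0.71). Hmox1 was most like Il1a (0.92), Txnrd1 like Pde4b (0.95), Srxn1 like Atp2b1 (0.87) and Gclm like Coa3 (0.89). Gclm and Slc7a11 had a value of -0.48. Nqo1 reached at most 0.58, with Ddit3, on very few UMIs. These values describe the sums, which share libraries, depth and cell classes, and carry no p-value.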

How the data were processed

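Single-cell 5′ gene expression was measured in 4 libraries, 1 per group, each from pooled tumours. The deposited matrices hold whole-number UMI counts per gene and cell, not normalised. Per the file headers they were written by cellranger 8.0.1, while the submitters' processing notes list Cell Ranger 7.1.0 and mm10. The labels and the study's methods name different versions of the 5′ kit. The other experiment of the study was not analysed here.

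The libraries held 8730, 15404, 14634 and 16322 cells (untreated, ADU-S100, anti-LTβR, combination) with 62248447, 85855398, 73704334 and 52109958 UMIs. Cells with 300 to 5000 genes and at most 6% mitochondrial UMIs were kept. The automatic doublet threshold of Scrublet marked at most 1 cell a library, so the cells with the highest doublet scores were removed at 0.4% per 1000 cells (305, 949, 857 and 1066 cells). Between 34 and 83 cell barcodes were shared by each pair of libraries. Clusters (scanpy 1.11.5, leidenalg 0.10.2, 2000 variable genes without the 8 genes and their pathway lists, 30 components, 20 neighbours, resolution 1) were named from at least 3 markers, and stayed unnamed where their leading genes marked another class more, or where no marker was among their 10 leading genes and few of the markers were found or the cells were shallow. Another named macrophage subset is not reported here. The genes, lists and markers were chosen with earlier results of these data known, and the limits used to name clusters were settled with the data in view.

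Counts were summed per library and class. Levels carry exact Poisson 95% intervals, log2 ratios exact binomial ones with 0.5 UMI added to each sum (scipy 1.17.1), and the calculation was tested on simulated data. With 1 library per group no test was possible. All 8 genes are named. Of the pathway lists, the genes past 2-fold with at least 200 UMIs over both libraries were named in macrophages and monocytes and in neutrophils, at most 3 rises and 3 falls per list and comparison, and of the 5 genes most like each member by Pearson's r of log2(CPM + 1) the first 1 or 2. The alternatives were no doublet removal, a limit of 10% mitochondrial UMIs, resolution 2, naming each cell on its own, centring on the median gene, equal weight of cells, thinning to 1000 UMIs, leaving out the 10 cells with most UMIs of a gene, and a minimum of 50 UMIs. A further 7 were chosen after seeing the data: weighting subsets by their untreated shares, subtracting RNA of other classes, and leaving out 1 T cell cluster, the sub-clusters led by S100a8 and S100a9, or the neutrophil cells in clusters with Vcan among their 10 leading genes, leaving out the 2% of cells with most UMIs of a gene, and keeping DCs of a named subset only. Promoters came from RefSeq (GRCm38.p6).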

Additional observations from a re-analysis of the deposited data

Results flagged for a closer look

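The log2 ratios of the metallothioneins had different signs in different cell classes under the same treatment, with 1 library on each side, and the difference between classes was not tested. For Mt1 under anti-LTβR against untreated, the log2 ratio was 0.63 in DCs, but -0.041 in macrophages and monocytes, -1.18 in neutrophils and -0.49 in T cells. For Mt1 under the combination it was 0.44 in macrophages and monocytes and 1.12 in DCs, but -0.47 in neutrophils. For Mt2 under the combination it was 0.96 in macrophages and monocytes and 2.01 in DCs, but -0.42 in T cells. That T cell ratio of Mt2 was -0.08 with cells thinned to 1000 UMIs. Without the 2% of T cells with most Mt2 UMIs it was -1.09, on fewer than 200 UMIs. In neutrophils 134 of the 186 untreated Mt1 UMIs came from 10 cells. Without the 2% of cells with most Mt1 UMIs in each library the neutrophil ratio of Mt1 was -0.59 under anti-LTβR and 0.26 under the combination, both on fewer than 200 UMIs. When each cell was named on its own it was 0.38 and 0.55, and without doublet removal -0.32 and 0.44. Counted without the minimum of 200 UMIs, the anti-LTβR ratio was past 2-fold under 8 of 13 alternatives, with a lowest value of -1.58 at the limit of 10% mitochondrial UMIs. Without the neutrophil sub-cluster with Ccr2 and Vcan among its leading genes it was -1.21 on fewer than 200 UMIs, and that of the combination was -0.16. The macrophage and monocyte ratio of Mt1 under anti-LTβR, -0.041, was near 0.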

How the results depend on the processing

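No paired analysis was possible because the labels give 1 library per group and no replicate numbers. Of 1379 values of 106 member ratios under 16 alternatives, 1044 lay within the counting interval and the rest outside it. The sign changed in 104 of the values, which belong to 39 of the ratios. Of these ratios 1 was past 2-fold, Mt1 in neutrophils under anti-LTβR, which was 0.38 when each cell was named on its own. Among those short of it, Mt1 in neutrophils was -0.99 under ADU-S100 and became 0.47 without the 10 cells with most UMIs, but 10 cells are 1.94% of the untreated and 0.186% of the ADU-S100 neutrophils, which by construction lowers the untreated level more, and without the same 2% of each library it was -0.48. Under the combination it was -0.47, and became 0.73 without the 10 cells and 0.26 without the 2%. Of 11 ratios past 2-fold, 3 were past it under every alternative run on their class: Slc7a11 under ADU-S100 in macrophages and monocytes (1.23 to 1.90), and Mt2 in DCs for the combination against untreated (1.61 to 2.06) and against ADU-S100 (1.34 to 2.13), although without the 10 cells or the 2% of cells with most UMIs, or in DCs of a named subset, these Mt2 ratios had fewer than 200 UMIs. The number of member ratios past 2-fold in macrophages and monocytes was 2, and became 1 with each cell named on its own, 6 when centred, 4 without the 10 cells and 5 without the 2%. In DCs it was 7, and became 4 with equal weight of cells, 4 with thinned cells 4 without the 10 cells or the 2%, and 1 in DCs of a named subset. In neutrophils it was 1, and became 0 without doublet removal, with each cell named on its own, with thinned cells, without the 2% of cells or without the sub-cluster with Ccr2 and Vcan (too few UMIs), 2 with 10% mitochondrial UMIs, equal weight of cells or RNA subtracted, and 3 with the minimum of 50 UMIs. In T cells it was 1, and became 7 without doublet removal, 4 with 10% mitochondrial UMIs or with each cell named on its own, 3 without the 10 cells or with the minimum of 50 UMIs, and 0 at resolution 2, without the 2% of cells or without the Taco1 and Abca13 cluster. The cause of these changes was not tested. The 4 named cell classes held 77.5% of kept cells, against 81.4% with 10% mitochondrial UMIs, 80.6% at resolution 2 and 60.6% with each cell named on its own. Under 200 UMIs over both libraries, and so not counted in any comparison, were Nqo1 in all 4 classes, Hmox1 and Srxn1 in DCs and T cells, and Mt2 in neutrophils. In some comparisons this held for Mt2 in DCs, Gclm and Srxn1 in neutrophils and Slc7a11 in T cells.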

Other observations

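Clusters that met no class name also held these genes. The largest of them described here, 2932 cells led by Plcb1, Arhgap26 and Nrg1, with 4 of 9 neutrophil markers, had Slc7a11 at 794, 2461, 1228 and 1067 CPM and Txnrd1 at 445, 797, 746 and 755 CPM (order of libraries as in the report, untreated first). Slc7a11 was thus highest there under ADU-S100, as in macrophages and monocytes. Its levels lay further apart there than in the cells named neutrophils, which had 1740, 1860, 1686 and 1763 CPM. A cluster of 1942 cells led by Zdhhc14, Psd3 and Itga9, with 4 of 12 macrophage and monocyte markers, had Slc7a11 at 378, 804, 642 and 621 CPM. A cluster of 1287 cells led by Pf4, Stmn1 and Fabp5, with 11 of 12 macrophage and monocyte markers and median depths of 851.5 to 998 UMIs, had Mt1 at 1187, 1485, 1448 and 1523 CPM and Mt2 at 193, 216, 273 and 285 CPM. B and plasma cells had Mt1 at 280, 437, 196 and 242 CPM. Cells with markers of non-leukocytes had Mt1 at 476, 901, 825 and 549 CPM and Mt2 at 233, 399, 441 and 261 CPM, with untreated lowest for both genes.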
